A study of Mus musculus with 8 samples.

Results

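The 9 genes described here encode the antigen receptor and defining surface proteins of dendritic epidermal T cells, the gamma-delta T cells of mouse epidermis, set beside a marker of CD8 T cells. They were listed by symbol and found through their Ensembl identifiers in the count tables of all 8 libraries, where 54232 identifiers were given. Trdc, Trdv4 and Tcrg-C1 are gamma-delta receptor genes. Cd3d, Cd3e, Cd3g and Cd247 encode the CD3 and zeta chains, Cd8a encodes the CD8 alpha chain, and Thy1 encodes the Thy-1 antigen. All 9 were among the 19251 genes that passed the filter on low counts.

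Dendritic epidermal T cells seed the mouse epidermis before birth, keep a receptor of nearly fixed sequence and lie between keratinocytes. Their receptor pairs a gamma with a delta chain and signals through the CD3 and zeta chains, which alpha-beta T cells share. CD8 is a coreceptor of cytotoxic alpha-beta T cells, and Thy-1, an early marker of dendritic epidermal T cells, is also carried by fibroblasts and other cells.

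RNA was sequenced from scraped epidermis of shaved back skin of female F1 mice of a C57Bl by 129 cross. The mice were REDD1 knockouts (KO) or wild type (WT). REDD1, the product of Ddit4, is induced by stress and by glucocorticoids and restrains the growth kinase mTORC1. The groups were KO and WT skin given the phorbol ester TPA (4 ug), an irritant and tumour promoter, with 1 library each. KO and WT skin given the glucocorticoid fluocinolone acetonide (FA, 2 ug) 1 h before TPA also had 1 library each. KO and WT skin given the acetone vehicle (200 ul) had 2 libraries each, and skin was taken at 24 h. All animals shared the cross, the sex, the shaving and the acetone.

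Library totals ranged from 16874233 to 22560098 counts, and values are given as CPM, counts scaled to library size, after TMM normalisation, which allows for differences in library makeup. A count of 0 allows up to 3 counts, between 0.133 and 0.178 CPM, covering counting error only. Ddit4 was at 4.44 (TPA), 7.25 (FA+TPA), 18.8 and 18.6 (vehicle) CPM in KO skin, against 64.2 (TPA), 90.3 (FA+TPA), 128 and 117 (vehicle) CPM in WT skin, and every library matched its genotype label. A single transcript, Gm26917, took between 16.8% and 24.2% of counts in the treated libraries and between 8.34% and 13.8% in vehicle libraries, and removing it changed no call among the 9 genes. The labels do not say that libraries came from separate animals, so p-values measure only how far these samples vary, and that variation may be technical. Treatment effects were fitted over both genotypes, because each treated group had 1 library.

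The variable segments of the receptor are shown first. Of the pair, Tcrg-V5 tells this receptor from that of the mouse dermal and mucosal gamma-delta T cells that use Tcrg-V6, which share Trdv4. Trdv4 encodes the delta variable segment and Tcrg-V5, a gene outside the 9, the gamma variable segment of dendritic epidermal T cells. The last 90 bases of each are shown from GENCODE M21 transcripts on GRCm38, the assembly that mm10 names. Trdv4 lies at chr14:54075426-54075515 and Tcrg-V5 at chr13:19192636-19192725, both on the plus strand. Capitals mark the run TACTACTGT that both segments carry shortly before the point where they are joined to the rest of the receptor gene.
Trdv4: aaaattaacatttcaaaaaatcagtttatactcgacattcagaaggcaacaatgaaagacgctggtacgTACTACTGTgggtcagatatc
Tcrg-V5: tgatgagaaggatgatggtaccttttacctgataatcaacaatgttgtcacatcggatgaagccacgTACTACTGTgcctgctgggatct

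Transcripts of this receptor were present in every library. In vehicle skin Trdv4 had 51 to 90 counts and Tcrg-V5 between 0.953 and 1.55 CPM. Gamma variable segments of other receptors had fewer counts than Tcrg-V5 in vehicle skin. Tcrg-V6, whose cells make interleukin-17, had at most 0.155 CPM in any library, Tcrg-V4 at most 0.207 CPM and Tcrg-V1 at most 0.362 CPM. After TPA the segments were too low to be ranked, and in WT skin Tcrg-V1 had 5 and Tcrg-V5 had 4 counts. Tcrg-C4, a constant segment of other gamma chains, was at 1.69 and 1.82 CPM in KO and 1.64 and 1.91 CPM in WT vehicle skin. Trdv1 and Trdv2-2 were at 0 counts in all 8 libraries, and Il17a and Il17f had at most 3 counts in each. Transcripts of this receptor were thus present in vehicle skin, beside some of other gamma-delta receptors. The CD3 genes are less specific, because alpha-beta transcripts were present too: Trbc2, a constant segment of the beta chain, was at 20.1 and 13.8 CPM in KO and 12.3 and 16.4 CPM in WT vehicle skin, and Trac, the alpha constant segment, at 1.08 and 0.953 CPM in KO and 0.735 and 0.672 CPM in WT vehicle skin.

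Levels can be compared between genes only per length, as CPM per kb of exon. In vehicle skin Trdv4 averaged 7.62 ± 2.23 and Thy1 7.53 ± 1.07 CPM per kb (SD, n = 4), which did not differ beyond their spread. Tcrg-C1 followed at 4.05 ± 0.711, Cd3e at 3.67 ± 1.08, Trdc at 3.19 ± 1.07, Cd3g at 2.87 ± 0.892 and Cd3d at 2.17 ± 0.501 CPM per kb. Each of these 5 overlapped its neighbour in that order, and all lay below the lowest library of Trdv4 and of Thy1. Cd247 at 1.11 ± 0.355 and Cd8a at 0.612 ± 0.535 CPM per kb were lowest, and their ranges overlapped as well.

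TPA lowered transcripts of the receptor and of its CD3 and zeta chains. Against vehicle, 7 of the 9 genes fell and 1 rose by edgeR's test with an adjusted p under 0.05, where 22.7% of all genes tested fell and 23.2% rose (46.0% called in all). The 7 that fell were the 3 gamma-delta receptor genes and the 4 CD3 and zeta genes. The median log2 fold change of the 9 was -1.66, beside -0.03 over all genes tested. Scaling by library size alone moved the all-gene median to -0.253 and the split to 2846 genes higher and 6432 lower, against 4472 higher and 4379 lower with TMM, and the calls and directions of the 9 genes stayed as they were.

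**Figure D1:**
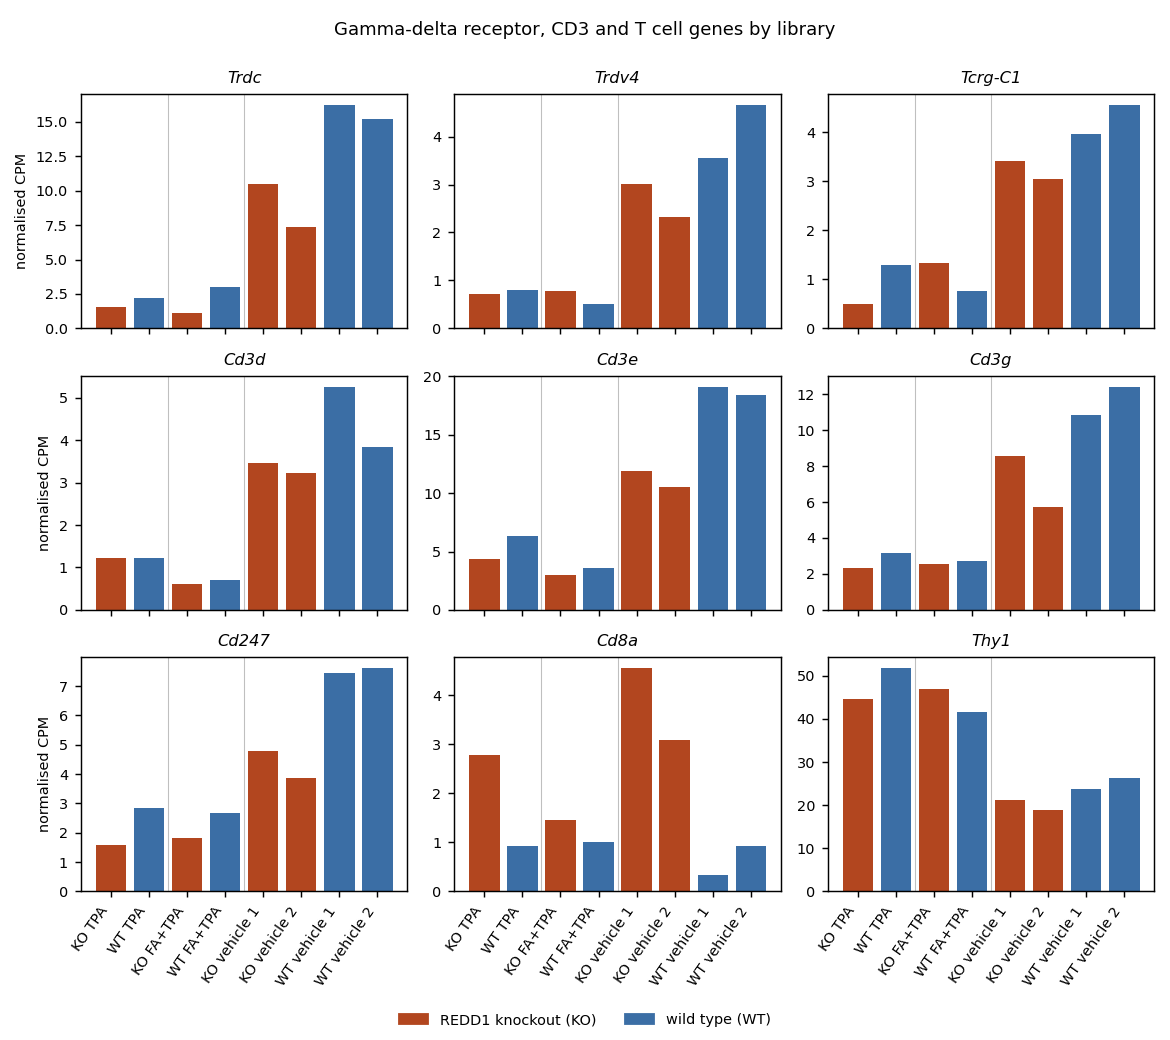
Normalised CPM of the 9 genes in each of the 8 libraries, with KO in orange and WT in blue and grey lines between treatments; each bar is 1 library and vertical scales differ between panels. The receptor and CD3 genes are low in all 4 treated libraries, Thy1 is high there, and Cd8a is higher in each KO library than in any WT library.

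Trdc, the constant segment of the delta chain (chr14:54142851-54148868, plus strand), changed most. It had 1.57 CPM in KO and 2.22 CPM in WT skin after TPA, and 1.09 CPM in KO and 2.99 CPM in WT skin after FA+TPA, against 10.5 and 7.35 CPM in KO vehicle skin and 16.2 and 15.2 CPM in WT vehicle skin. Every treated library was below every vehicle library. The fitted log2 fold change of TPA over vehicle was -2.66 ± 0.23 (SE), a 6.33-fold lower level, with an edgeR adjusted p of 8.1e-06. Exons of Trdc overlap Trdv5 and the antisense gene Gm43434, and since the strand setting of the counting is not given in the sources used here, their reads cannot be told apart.

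Trdv4 (chr14:54074905-54075515, plus strand) lay at 0.718 CPM in KO and 0.801 CPM in WT skin after TPA, and at 0.785 CPM in KO and 0.509 CPM in WT skin after FA+TPA. Vehicle skin had 3.00 and 2.31 CPM in KO and 3.56 and 4.66 CPM in WT. Treated and vehicle libraries again did not overlap. TPA changed Trdv4 by -2.11 ± 0.33 on the log2 scale (edgeR adjusted p = 0.000382).

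Tcrg-C1, the gamma constant segment of this receptor (chr13:19214103-19217024, plus strand), had 0.494 CPM in KO and 1.29 CPM in WT skin after TPA, 1.33 CPM in KO and 0.763 CPM in WT skin after FA+TPA, and 3.42 and 3.04 CPM in KO and 3.96 and 4.55 CPM in WT vehicle skin. The change after TPA was -2.13 ± 0.35 on the log2 scale (edgeR adjusted p = 0.000608), with no overlap between the groups. The Tcrg-C1 transcript is 96.0% identical to Tcrg-C2 and 96.9% to Tcrg-C3 over the aligned bases, so the split of reads among these copies is uncertain. Beyond the 9, Tcrg-V5 had 0.359 CPM in KO and 0.247 CPM in WT skin after TPA and fell by 2.05 ± 0.42 on the log2 scale (edgeR adjusted p = 0.00236). Tcrg-V5 had 4 to 10 counts in treated and 21 to 33 in vehicle libraries, and Tcrg-C2 had 3 to 5 and 9 to 17. Both passed the filter through vehicle libraries, so a fall in them was partly fixed in advance. Of the 17 other gamma-delta receptor genes, 3 could be tested and all 3 fell after TPA, where 22.7% of all genes fell. Of these, Tcrg-C2 (-1.50 ± 0.49) lost its call without KO TPA, WT TPA or WT vehicle replicate 2 (adjusted p 0.17, 0.166 and 0.0507) and Tcrg-C4 (-1.17 ± 0.31) lost its call without KO TPA (adjusted p 0.153), and DESeq2 called neither (0.169 and 0.0513).

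Transcripts of the chains that carry the signal of the receptor, which alpha-beta T cells share, fell as well. Cd3e, an invariant CD3 chain, had 4.40 CPM in KO and 6.35 CPM in WT skin after TPA, against 11.9 and 10.5 CPM in KO and 19.1 and 18.4 CPM in WT vehicle skin, a change of -1.46 ± 0.15 (edgeR adjusted p = 2.83e-05). Cd3g, its gamma chain, had 2.33 CPM in KO and 3.14 CPM in WT skin after TPA, against 8.53 and 5.72 CPM in KO and 10.8 and 12.4 CPM in WT vehicle skin, a change of -1.75 ± 0.23 (edgeR adjusted p = 0.000118). Cd3d, its delta chain, had 1.21 CPM in KO and 1.23 CPM in WT skin after TPA, against 3.47 and 3.22 CPM in KO and 5.26 and 3.83 CPM in WT vehicle skin, a change of -1.66 ± 0.25 (edgeR adjusted p = 0.000328). For all 3 the TPA libraries lay below the vehicle libraries without overlap. Cd247, the zeta chain with most of the signalling motifs of the complex, had 1.57 CPM in KO and 2.83 CPM in WT skin after TPA, against 4.78 and 3.86 CPM in KO and 7.46 and 7.60 CPM in WT vehicle skin. Its change was -1.43 ± 0.19 (edgeR adjusted p = 0.000167), again without overlap. Exons of Cd3e and Cd247 overlap other genes, Gm48719 for Cd3e and Gm16565 and Pou2f1 for Cd247. In these bulk samples, fewer cells of a type and less RNA per cell cannot be told apart.

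Cd3d, Cd3e and Cd3g are neighbours on chromosome 9 and moved together with Cd247, so the sequences before their start sites are shown, from RefSeq on GRCm38.p6. Each runs from 250 bases before to 50 bases after the start, 5′ to 3′ on the strand of the gene: Cd3d at chr9:44981536-44981835 (plus), Cd3e at chr9:45009562-45009861 (minus), Cd3g at chr9:44980382-44980681 (minus) and Cd247 at chr1:165788431-165788730 (plus). Promoters of 5 of the 9 genes were in the table used here. Capitals mark matches, on either strand, to the E-box CAGGTG, the ETS motif AGGAAG, the GATA motif AGATAA and the glucocorticoid receptor half-site pair ACANNNTGT.
Cd3d: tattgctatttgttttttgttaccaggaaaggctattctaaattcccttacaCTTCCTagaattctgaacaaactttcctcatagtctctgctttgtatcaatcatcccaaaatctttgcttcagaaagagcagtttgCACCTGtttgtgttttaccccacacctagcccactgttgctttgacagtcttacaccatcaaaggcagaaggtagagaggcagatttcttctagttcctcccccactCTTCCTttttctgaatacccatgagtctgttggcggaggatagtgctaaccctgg
Cd3e: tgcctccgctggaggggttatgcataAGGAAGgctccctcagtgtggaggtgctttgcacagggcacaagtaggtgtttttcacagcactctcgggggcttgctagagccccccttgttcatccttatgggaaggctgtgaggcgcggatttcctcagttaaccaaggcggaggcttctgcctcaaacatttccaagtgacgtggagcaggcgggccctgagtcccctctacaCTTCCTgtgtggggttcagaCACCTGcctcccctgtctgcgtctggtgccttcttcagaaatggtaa
Cd3g: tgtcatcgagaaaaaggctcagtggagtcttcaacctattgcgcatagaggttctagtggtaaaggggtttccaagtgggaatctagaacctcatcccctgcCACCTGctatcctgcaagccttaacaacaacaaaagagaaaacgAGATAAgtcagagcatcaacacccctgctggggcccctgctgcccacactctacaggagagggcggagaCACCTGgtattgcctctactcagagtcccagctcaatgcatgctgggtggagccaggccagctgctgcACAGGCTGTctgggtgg
Cd247: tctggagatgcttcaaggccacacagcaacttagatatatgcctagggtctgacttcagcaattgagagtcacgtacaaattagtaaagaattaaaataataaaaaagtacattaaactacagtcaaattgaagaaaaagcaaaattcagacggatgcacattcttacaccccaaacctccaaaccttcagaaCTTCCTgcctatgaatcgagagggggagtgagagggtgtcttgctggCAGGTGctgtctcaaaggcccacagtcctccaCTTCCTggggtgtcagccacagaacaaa

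All 4 held the E-box CAGGTG, which 20.0% of 27025 RefSeq promoters of this length held. The ETS motif AGGAAG was found in Cd3d, Cd3e and Cd247 and in 35.1% of promoters. Cd3g alone of the 5 held AGATAA (11.4% of promoters) and ACANNNTGT (6.90%). None of the 5 held the AP-1 motif TGANTCA (7.93% of promoters) or the RUNX motif TGTGGT (16.9%), and the promoter of Cd8a held none of the 6 motifs. The matches did not overlap one another. A match is only a run of letters in this window.

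Thy1 and Cd8a did not follow the receptor genes after TPA. Thy1 (chr9:44043384-44048579, plus strand) had 44.7 CPM in KO and 51.7 CPM in WT skin after TPA, and 46.9 CPM in KO and 41.5 CPM in WT skin after FA+TPA. Vehicle skin had 21.1 and 19.0 CPM in KO and 23.8 and 26.3 CPM in WT. All treated libraries were above all vehicle libraries, and TPA changed Thy1 by 1.10 ± 0.12 on the log2 scale, 2.14-fold higher (edgeR adjusted p = 3.06e-05). After TPA, 23.2% of all genes tested rose and 22.7% fell. Of 8 fibroblast genes, another source of Thy1 transcripts, 4 rose and 3 fell. Their summed level was 426 to 544 CPM after TPA, against 633 to 1180 CPM in vehicle skin. Most of this sum came from the 3 genes that fell, all of them collagen genes. It therefore says little of the 4 that rose. Pdgfra (2.04 ± 0.37) and Fbln1 (1.58 ± 0.11) were among those that rose and the collagen gene Col3a1 (-0.86 ± 0.19) among those that fell, the last losing its call without KO TPA (adjusted p 0.101). The part of fibroblasts in the Thy1 change was not tested.

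Cd8a (chr6:71373427-71379173, plus strand) had 2.78 CPM in KO and 0.925 CPM in WT skin after TPA, and 1.45 CPM in KO and 1.02 CPM in WT skin after FA+TPA. Vehicle skin had 4.55 and 3.09 CPM in KO and 0.339 and 0.931 CPM in WT. Treated and vehicle libraries overlapped, and the KO libraries were the high ones in each treatment. TPA over vehicle gave -0.16 ± 0.43 on the log2 scale (edgeR adjusted p = 0.787), and the sign of this value turned without KO TPA (0.12) or KO vehicle replicate 1 (0.15). By length, Cd8a at 0.510 ± 0.361 CPM per kb stood beside Trdc at 0.490 ± 0.119 CPM per kb after TPA (SD, n = 2), whereas in vehicle skin the means were 0.612 and 3.19 CPM per kb.

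**Figure D2:**
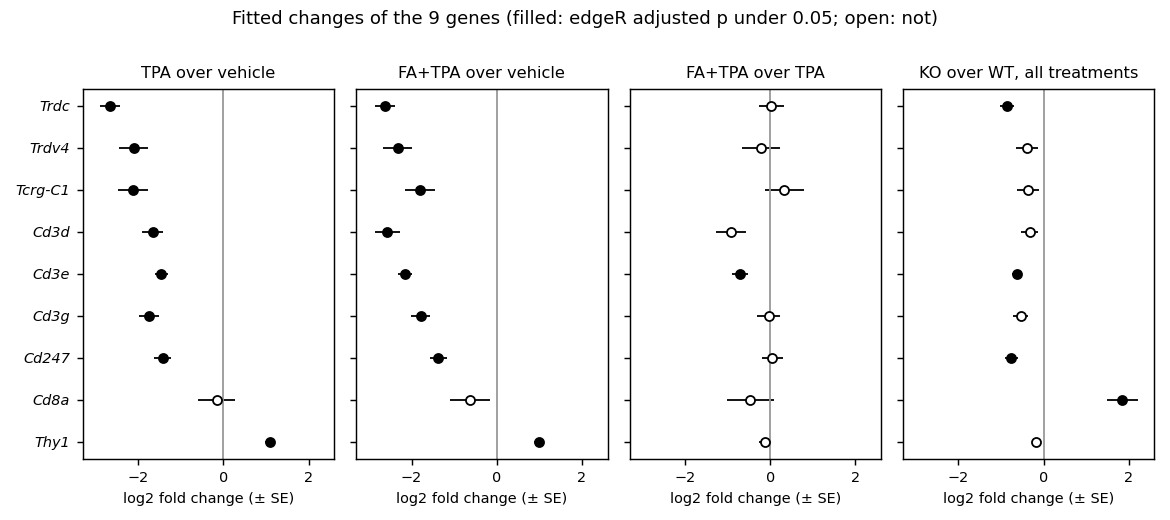
Fitted log2 fold changes of the 9 genes with their standard errors in 4 comparisons; filled points had an edgeR adjusted p under 0.05. Trdc to Cd247 lie left of 0 after TPA and after FA+TPA, Thy1 lies right of 0, and Cd8a is the 1 gene to the right of 0 in KO over WT.

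The contrast of CD8 with gamma-delta transcripts was also read inside each library, where library size cancels. The log2 ratio of Cd8a counts to Trdc counts was 0.82 in KO and -1.24 in WT skin after TPA, 0.41 in KO and -1.53 in WT skin after FA+TPA, -1.20 and -1.25 in KO vehicle skin, and -5.47 and -3.99 in WT vehicle skin. Within each genotype, both treated libraries were above both vehicle libraries. Pooled over genotypes the groups overlapped, with means of -0.38 ± 1.17 in treated and -2.98 ± 2.11 in vehicle libraries (SD, n = 4 each). The difference of 2.59 had p = 0.143 in an exact two-sided permutation test, for which the smallest p possible was 0.0286. This test ignored genotype, so the gap between genotypes added to the spread. The WT vehicle ratios rest on 6 and 18 counts of Cd8a.

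**Figure D3:**
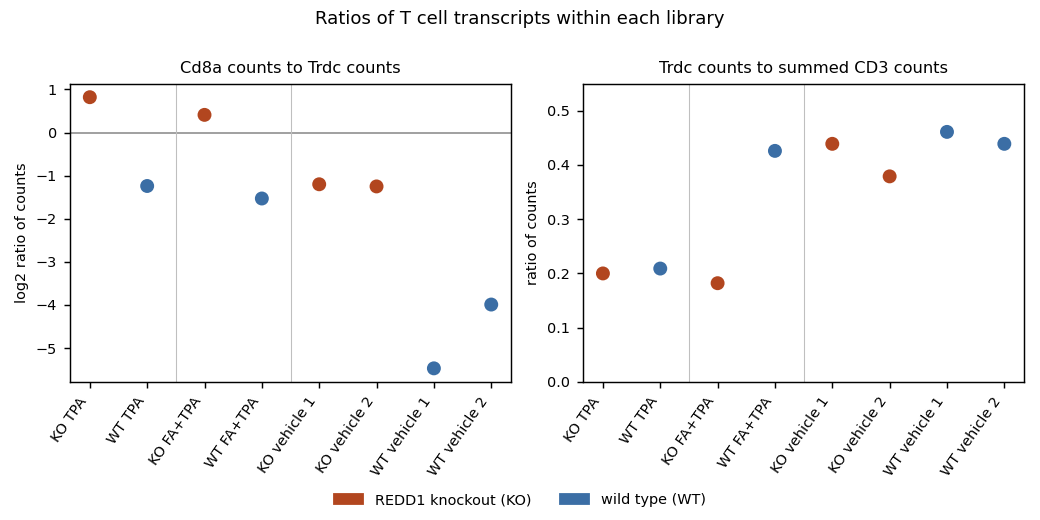
Log2 ratio of Cd8a to Trdc counts (left) and ratio of Trdc counts to the summed counts of Cd3d, Cd3e and Cd3g (right). Each point is 1 library, with KO in orange and WT in blue. The left ratio is lowest in the 2 WT vehicle libraries, and the right ratio is at or below 0.209 in 3 of the 4 treated libraries.

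The level of Trdc was also set against the CD3 chains it signals through. Trdc counts were divided by the summed counts of Cd3d, Cd3e and Cd3g, leaving out Cd247. This ratio was 0.200 in KO and 0.209 in WT skin after TPA, and 0.182 in KO and 0.426 in WT skin after FA+TPA. It was 0.439 and 0.379 in KO vehicle skin and 0.461 and 0.439 in WT vehicle skin. WT FA+TPA was the 1 treated library inside the vehicle range. No test was made of this ratio.

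FA given before TPA did not bring the receptor genes near vehicle levels. Against vehicle, FA+TPA skin had 7 of the 9 genes lower and 1 higher (14.2% of all genes tested were lower, 17.4% higher and 31.6% called in all), and the comparison shares its vehicle libraries with the one for TPA. Trdc changed by -2.63 ± 0.24, Trdv4 by -2.33 ± 0.35, Tcrg-C1 by -1.80 ± 0.35, Cd3d by -2.57 ± 0.29, Cd3e by -2.15 ± 0.17, Cd3g by -1.79 ± 0.23, Cd247 by -1.38 ± 0.20 and Thy1 by 0.98 ± 0.12 on the log2 scale, with edgeR adjusted p from 9.86e-06 to 0.00289. Cd8a was at -0.63 ± 0.48 (edgeR adjusted p = 0.348), and its sign turned without KO FA+TPA (0.42). Tcrg-C1 lost its call without WT FA+TPA (-1.19, adjusted p 0.0806). Beyond the 9, Tcrg-V5 was at 0.604 CPM in KO and 0.382 CPM in WT skin after FA+TPA (-1.38 ± 0.40 against vehicle, edgeR adjusted p = 0.0225), a call lost in DESeq2 (0.0801) and without KO vehicle replicate 1, KO FA+TPA or WT FA+TPA (0.058 to 0.225).

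Set against TPA alone, FA+TPA changed 1 of the 9 genes, where 10% of all genes tested were called, 4.31% lower and 5.71% higher. Cd3e had 2.96 CPM in KO and 3.63 CPM in WT skin after FA+TPA, against 4.40 CPM in KO and 6.35 CPM in WT skin after TPA, a log2 fold change of -0.70 ± 0.19 (edgeR adjusted p = 0.0451). That call was lost without either KO vehicle library or any 1 of the 4 treated libraries (adjusted p 0.0505 to 0.365) and in DESeq2 (0.0635). Cd3d had 0.604 CPM in KO and 0.700 CPM in WT skin after FA+TPA, against 1.21 CPM in KO and 1.23 CPM in WT skin after TPA. Its libraries did not overlap, and its log2 fold change was -0.92 ± 0.36 (edgeR adjusted p = 0.145). The other 7 lay between -0.47 ± 0.55 (Cd8a) and 0.33 ± 0.46 (Tcrg-C1), with Trdc at 0.03 ± 0.30 and Thy1 at -0.12 ± 0.14.

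Some genes of the receptor complex were lower and Cd8a was higher in REDD1 knockout skin. Over all treatments, Trdc, Cd3e and Cd247 fell and Cd8a rose in KO skin, 4 of the 9 genes, where 3.58% of all genes tested were called, 1.60% lower and 1.98% higher. The other 5 genes also had negative values, from -0.17 ± 0.10 for Thy1 to -0.54 ± 0.18 for Cd3g (edgeR adjusted p = 0.141). The median over the 9 was -0.39, beside -0.01 over all genes. The other gamma-delta receptor genes that could be tested lay near 0, with Tcrg-V5 at 0.10 ± 0.31, Tcrg-C2 at 0.07 ± 0.38 and Tcrg-C4 at 0.07 ± 0.24, and the sign of each turned when certain single libraries were left out.

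Trdc was lower in KO than in WT skin within each treatment, and its log2 fold change was -0.86 ± 0.17 (edgeR adjusted p = 0.0243). In vehicle skin alone it averaged 8.91 ± 2.20 CPM in KO and 15.7 ± 0.714 CPM in WT (SD, n = 2 each), without overlap. Cd3e changed by -0.62 ± 0.12 (edgeR adjusted p = 0.0214), with 11.2 ± 0.969 CPM in KO and 18.8 ± 0.488 CPM in WT vehicle skin. Cd247 changed by -0.76 ± 0.15 (edgeR adjusted p = 0.0224), with 4.32 ± 0.653 CPM in KO and 7.53 ± 0.101 CPM in WT vehicle skin. These calls are near the threshold. Trdc lost its call without KO vehicle replicate 2, KO FA+TPA, WT vehicle replicate 1 or WT FA+TPA (adjusted p up to 0.0907), Cd3e without either KO vehicle library or WT vehicle replicate 1 (up to 0.0907), and Cd247 without any 1 of the 8 libraries (0.0502 to 0.0894).

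Cd8a changed by 1.85 ± 0.37 over all treatments, 3.60-fold higher in KO (edgeR adjusted p = 0.0239). Its 4 KO libraries ranged from 1.45 to 4.55 CPM and its 4 WT libraries from 0.339 to 1.02 CPM, without overlap. The call was lost without KO vehicle replicate 1 (1.60, adjusted p 0.0628) or WT vehicle replicate 2 (1.86, adjusted p 0.0691). In vehicle skin alone the log2 fold change was 2.55 ± 0.43 (edgeR adjusted p = 0.0150), and Cd8a was the only 1 of the 9 genes called there, where 2.17% of all genes tested were called (1.44% higher, 0.727% lower). The other 8 genes had negative values there, and the median over the 9 was -0.63, beside -0.02 over all genes tested. With 2 libraries per genotype, a gap without overlap is weak evidence. Trdc was at -0.82 ± 0.21 (edgeR adjusted p = 0.0926) and Cd3e at -0.75 ± 0.17 (edgeR adjusted p = 0.0534). Cd3e was called without either WT vehicle library or any 1 of the 4 treated libraries (adjusted p 0.0141 to 0.0498). Trdc was called without either WT vehicle library or KO vehicle replicate 1 (0.0175 to 0.0335) and Cd3g (-0.71 ± 0.23) without WT vehicle replicate 1 (0.0357).

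**Figure D4:**
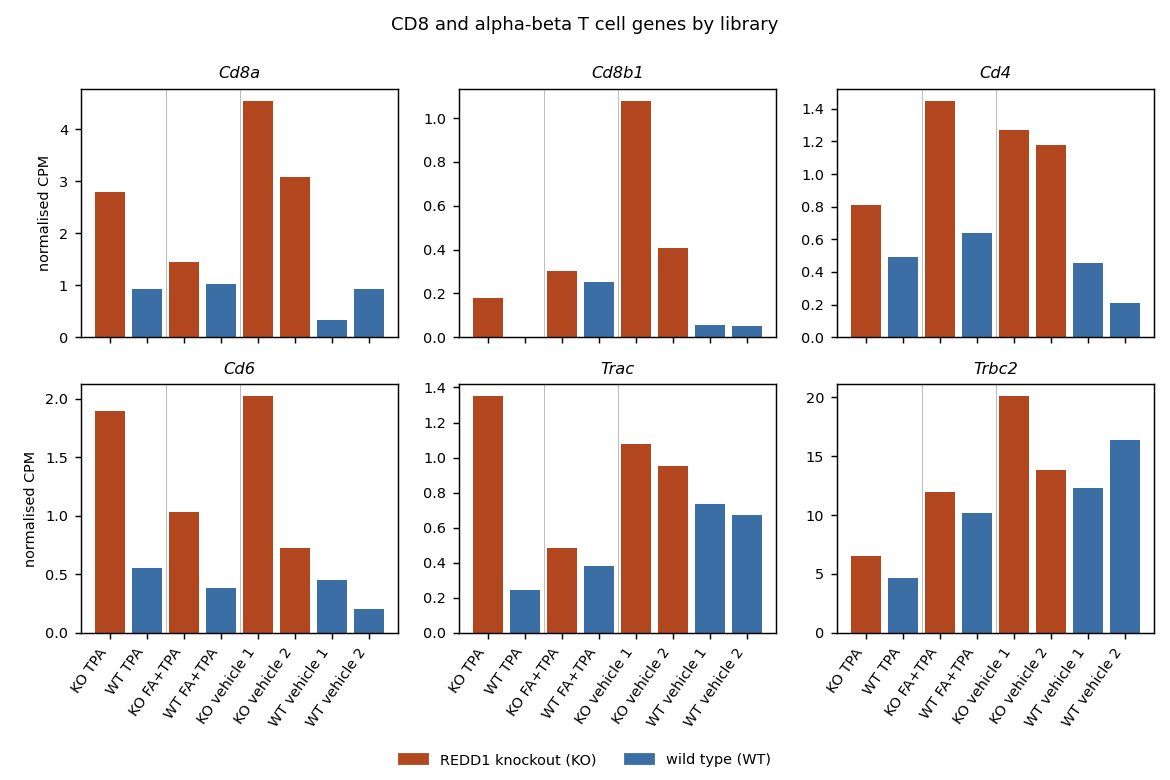
Normalised CPM of Cd8a and of 5 alpha-beta T cell genes in each of the 8 libraries, KO in orange and WT in blue; each bar is 1 library and vertical scales differ. Cd8a, Cd4 and Cd6 are higher in the KO libraries than in the WT libraries of the same treatment, and Trbc2 overlaps between genotypes in vehicle skin.

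Other alpha-beta T cell genes were read beside Cd8a. Cd8b1, the partner chain of Cd8a in conventional CD8 T cells, did not pass the filter, and it is named here after its values were seen. It had 4 counts in KO and 0 counts in WT skin after TPA, 5 in KO and 4 in WT skin after FA+TPA, 23 and 9 in KO vehicle skin and 1 and 1 in WT vehicle skin. Over all genes tested, 1.98% rose and 1.60% fell in KO skin over all treatments. Of the 6 alpha-beta genes tested, 2 rose and none fell, with a list median of 0.67 beside -0.01 over all genes. These were Cd6 (1.83 ± 0.41, edgeR adjusted p = 0.0372), a T cell surface glycoprotein, and Cd4 (1.41 ± 0.33, edgeR adjusted p = 0.0464), the coreceptor of helper T cells. Cd6 had 4 to 9 counts in WT and 16 to 43 in KO libraries, and Cd4 had 4 to 10 and 18 to 27. Both passed the filter through KO libraries, so a rise in them was partly fixed in advance. Both calls are also fragile. Cd4 lost its call in DESeq2 (0.116) and without any 1 library other than those of TPA (up to 0.137), and Cd6 without any 1 library other than KO vehicle replicate 2 (up to 0.0959). Trac was at 0.90 ± 0.36 (edgeR adjusted p = 0.244) and Trbc2 at 0.28 ± 0.15 (edgeR adjusted p = 0.406). Genes of cytotoxic CD8 cells were scarce: 3 of 10 could be tested, Gzmk was at 0 in every library, and Gzma, Eomes and Ifng had at most 3 counts in each. Of the 3 tested, none rose and 1 fell in KO skin over all treatments, with a list median of -0.19. Tbx21 and Gzmb did not pass the filter either, and both are named here after their values were seen. Tbx21, a transcription factor gene of cytotoxic and helper T cells, had 3 (TPA), 3 (FA+TPA), 7 and 9 (vehicle) counts in KO, against 1 (TPA), 0 (FA+TPA), 0 and 1 (vehicle) counts in WT. The granzyme gene Gzmb, listed with the genes of dendritic epidermal T cells, had 26 (TPA), 0 (FA+TPA), 9 and 7 (vehicle) counts in KO, against 2 (TPA), 0 (FA+TPA), 0 and 0 (vehicle) counts in WT. Neither was tested. The perforin gene Prf1 fell in KO skin (-0.94 ± 0.17, edgeR adjusted p = 0.0149), a call lost without KO vehicle replicate 2, KO FA+TPA, WT vehicle replicate 2 or WT FA+TPA (0.0515 to 0.0609).

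No response of the 9 genes was shown to depend on REDD1. For the interaction of genotype with TPA, none of the 9 was called by edgeR, DESeq2 or limma-voom, none had an unadjusted p under 0.05, and 0.00519% of all genes tested were called by edgeR. For the interaction of genotype with FA, none was called by the 3 tools, and 1 of the 9 had an unadjusted p under 0.05 (0.0% of all genes called by edgeR). That gene was Tcrg-C1, at 2.17 ± 0.75 on the log2 scale (unadjusted p = 0.0155, edgeR adjusted p = 1.0). Trdc had interaction values of 0.32 ± 0.47 for TPA and -0.96 ± 0.61 for FA, and Cd8a -0.97 ± 0.77 for TPA and -1.08 ± 0.90 for FA. These intervals are wide, since each treated group had 1 library.

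The genes around the receptor were read from lists of T cell signalling, dendritic epidermal T cell and keratinocyte genes. Their counts after TPA stand beside the 22.7% of all genes that fell, the 23.2% that rose and the 46.0% called in all. Of 24 tested genes associated with dendritic epidermal T cells, 11 fell and 5 rose after TPA, with a median of -0.37. The 5 that rose, named here after their values were seen, were Cd200r1 (1.98 ± 0.35), Gzmc (1.78 ± 0.31), the growth factor gene Areg (1.43 ± 0.23), Fcer1g (0.67 ± 0.21) and Il2rg (0.62 ± 0.15), with edgeR adjusted p from 0.000459 to 0.0253. Cd200r1, Fcer1g and Il2rg lost their calls without KO TPA (adjusted p 0.0522, 0.395 and 0.098), Fcer1g also without KO vehicle replicate 1 (0.0724), and Fcer1g and Il2rg with library size only (0.124 and 0.0858). Xcl1, a chemokine made by these cells, had 0.135 CPM in KO and 0.185 CPM in WT skin after TPA, against 1.45 and 1.23 CPM in KO and 2.66 and 2.53 CPM in WT vehicle skin (-3.53 ± 0.50, edgeR adjusted p = 0.00022). Xcl1 passed the filter through vehicle libraries and Cd200r1 through TPA libraries, so the direction of their changes was partly fixed in advance. Cd7, a T cell surface protein, fell after TPA (-1.39 ± 0.20, edgeR adjusted p = 0.000229), as did Ahr, the aryl hydrocarbon receptor that these cells need to persist in mouse skin (-0.74 ± 0.10, edgeR adjusted p = 0.000183). Ahr was at 171 and 163 CPM in KO and 169 and 181 CPM in WT vehicle skin, and which cells its RNA came from was not tested. Cd7 also fell in KO skin over all treatments, with 1.66 (TPA), 1.75 (FA+TPA), 4.03 and 3.63 (vehicle) CPM in KO, against 2.84 (TPA), 3.50 (FA+TPA), 7.52 and 9.10 (vehicle) CPM in WT (-1.02 ± 0.15, edgeR adjusted p = 0.00602). Its KO libraries were lower within each treatment. The chemokine receptor gene Ccr4 was the other of the 24 that fell in KO skin (-0.65 ± 0.10, edgeR adjusted p = 0.0064), where 1.60% of all genes fell.

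Of 18 tested genes of T cell receptor signalling, 5 fell and 2 rose after TPA, with a median of -0.15, a share called below the 46.0% of all genes. The 2 that rose were Prkcq, a protein kinase C (1.70 ± 0.16, edgeR adjusted p = 1.17e-05), and Lat, a membrane adaptor (1.49 ± 0.15, edgeR adjusted p = 2.45e-05). The adaptor gene Grap2 fell (-0.68 ± 0.14, edgeR adjusted p = 0.00221). None of the 18 was called in KO skin over all treatments, where 3.58% of all genes were called, and the list median was 0.0. FA+TPA lowered Lat (-0.99 ± 0.18), Prkcq (-0.66 ± 0.19) and Rhoh (-1.26 ± 0.32) relative to TPA and raised Trbc2 (0.99 ± 0.22), with edgeR adjusted p from 0.00687 to 0.0468. Each of these 4 calls was lost without at least 3 of the 4 treated libraries taken singly.

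Most listed keratinocyte ligands and survival factors of dendritic epidermal T cells were lower after TPA. Of 17 tested, 11 fell and 2 rose, with a median of -0.96, where 22.7% of all genes fell and 23.2% rose. The 2 that rose, named here after their values were seen, were the ligand genes Cxadr (0.80 ± 0.09, edgeR adjusted p = 5.69e-05) and Plxnb2 (0.38 ± 0.09, edgeR adjusted p = 0.00393), the last losing its call without WT TPA (0.0845) and with library size only (0.15, 0.231). The Skint genes belong to the family of Skint1, which dendritic epidermal T cells need for their selection in the mouse thymus, and reads can be split among these related genes. Skint5 had 34.3 CPM in KO and 51.3 CPM in WT skin after TPA and 87.1 CPM in KO and 101 CPM in WT skin after FA+TPA, against 323 and 243 CPM in KO and 269 and 322 CPM in WT vehicle skin. TPA lowered Skint5 (-2.78 ± 0.17, edgeR adjusted p = 6.89e-07), Skint7 (-2.88 ± 0.18, 1.01e-06) and Skint10 (-2.30 ± 0.17, 2.45e-06). Il15, a survival factor of these cells named here after its values were seen, fell by 1.37 ± 0.16 on the log2 scale (edgeR adjusted p = 5.55e-05).

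FA+TPA raised 6 of the 17 and lowered 2 relative to TPA, where 5.71% of all genes tested rose and 4.31% fell. No gamma-delta receptor gene was called in this comparison. Tcrg-V5 was at 0.67 ± 0.55, Tcrg-C1 at 0.33 ± 0.46, Tcrg-C2 at 0.07 ± 0.69 and Trdc at 0.03 ± 0.30. Tcrg-C4 was at -0.14 ± 0.40 and Trdv4 at -0.22 ± 0.45. With errors this wide, these values show neither a rise nor its absence. Skint5 was 1.15 ± 0.17 higher on the log2 scale and Skint6 0.95 ± 0.14 higher (edgeR adjusted p = 0.002 and 0.0017), while Cxadr, which encodes a junction protein bound by JAML on these cells, was at -0.88 ± 0.11 (edgeR adjusted p = 0.000855). In KO skin 4 of the 17 rose over all treatments and none fell, with a list median of -0.02. Of all genes tested, 1.98% rose and 1.60% fell in KO skin. Skint4 had 22.8 (TPA), 46.2 (FA+TPA), 88.2 and 68.4 (vehicle) CPM in KO, against 12.6 (TPA), 18.4 (FA+TPA), 31.5 and 43.0 (vehicle) CPM in WT (1.08 ± 0.13, edgeR adjusted p = 0.00143). Skint9 (1.06 ± 0.18, 0.0101) and Skint3 (0.84 ± 0.12, 0.0046) rose too. All 3 were higher in KO than in WT skin within each treatment.

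Markers of other epidermal and infiltrating cells were read beside the receptor genes. Of 10 tested genes of Langerhans and dendritic cells, 5 fell and 2 rose after TPA, where 22.7% of all genes fell and 23.2% rose, and the Langerhans cell marker Cd207 was at -1.45 ± 0.13 (edgeR adjusted p = 7.7e-06). The summed level of that list was 681 to 718 CPM after TPA, against 906 to 1040 CPM in vehicle skin. Of 5 tested neutrophil genes, 4 rose and none fell after TPA, and their list summed to 396 to 931 CPM after TPA, against 4.24 to 14.9 CPM in vehicle skin. Among the 4, Csf3r had 3 to 7 counts in vehicle and 49 to 775 in treated libraries. It passed the filter through treated libraries, so its rise was partly fixed in advance. Regulatory and helper T cell genes summed to 14.1 to 16.1 CPM after TPA, against 16.3 to 17.6 CPM in vehicle skin, with Ctla4 lower (-2.23 ± 0.32, edgeR adjusted p = 0.000238) and Icos higher (1.40 ± 0.38, edgeR adjusted p = 0.0109, lost without either TPA library) among 6 tested. The natural killer cell marker Ncr1 and the B cell markers Ms4a1 and Cd79b had at most 3 counts in every library. The part of these cell types in the receptor changes was not tested.

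The genes whose pattern was most like that of Trdc were found from the root mean square difference in log2 CPM, centred per gene, over the 8 libraries, among 14402 named genes. Prf1, a pore-forming protein of cytotoxic granules, was nearest (0.339, Pearson's r = 0.976). It was followed by Acsl6 (0.386), Pls1 (0.434), Wnt10b (0.446), Slc43a1 (0.454), Vipr1 (0.467), Meg3 (0.473), Ak1 (0.475), Pigr (0.493) and Fbp2 (0.505), with r between 0.944 and 0.978 across these 10. Prf1 had 0.988 CPM in KO and 2.59 CPM in WT skin after TPA, 1.03 CPM in KO and 1.97 CPM in WT skin after FA+TPA, 6.24 and 4.86 CPM in KO vehicle skin and 8.93 and 10.7 CPM in WT vehicle skin. Among the same genes Cd3d ranked 19, Cd3g 21, Cd3e 22, Trdv4 25, Cd247 71 and Tcrg-C1 100, and outside the 9 Tcrg-V5 ranked 227 (r = 0.834). Cd8a ranked 13170 and Thy1 12967. The libraries share treatment and genotype groups, so these values describe likeness only.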

How the data were processed

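Total RNA from scraped epidermis was sequenced in 8 libraries. Per the submitters' processing notes, the authors used Trim Galore, STAR, HTSeq and mm10; no version, annotation or strand setting is given in the sources used here. The deposited files held raw read counts per Ensembl identifier, not normalised by the authors. Groups came from the labels. Symbols and coordinates came from GENCODE M21 (54079 of 54232 identifiers had a symbol).

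The tests were run on these counts in edgeR 4.0.16 under R 4.3.3 (quasi-likelihood F test, TMM, filterByExpr grouped by treatment, minimum count 10, Benjamini-Hochberg over 19251 genes, threshold 0.05). An additive model of genotype and treatment over the 8 libraries gave treatment effects and KO against WT over all treatments. KO against WT in vehicle skin and the interactions used 1 mean per group, so the single treated libraries were assumed to vary like the vehicle pairs. SE was the absolute log2 fold change over the square root of F. The vehicle replicates differed by more than sampling noise (chi-square per degree of freedom 12.37 in KO, 27.57 in WT) and were kept as separate samples. Likeness used log2 CPM with a prior count of 0.5. The code was tested on simulated counts.

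The 9 genes and the gene lists were chosen with earlier results of these data known. All 9 are reported in every comparison, then up to 3 called genes with the smallest p per list (named in part), and the 10 genes most like Trdc. Results were recomputed with RLE normalisation, with library size only, without a filter, with a minimum count of 50, in DESeq2 1.42.0 and limma-voom (limma 3.58.1), without Gm26917, with 1 mean per group, without each library, and on the vehicle libraries alone, blocked or not by replicate number.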

Additional observations from a re-analysis of the deposited data

How the results depend on the processing

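For TPA against vehicle, 141 of 144 values of the 9 genes kept their direction and side of the threshold, as did 142 of 144 for FA+TPA against vehicle, 123 of 144 for FA+TPA against TPA and for KO against WT over all treatments, and 138 of 153 for KO against WT in vehicle skin. For FA+TPA against TPA, 0 genes were called with library size only, DESeq2, limma-voom or 1 mean per group, and 0 to 1 with each library left out. For KO against WT over all treatments, 1 gene was called with 1 mean per group and 1 to 3 with each library left out. In vehicle skin, 2 were called by limma-voom, 2 with vehicle libraries alone and 4 with vehicle libraries alone and a replicate block, against 1 to 4 with each library left out. The replicate numbers did not pair the samples (r = -0.037 between deviations of same-numbered libraries, across 19251 genes). With 1 mean per group, Cd8a was at 0.03 for TPA against vehicle and Trdc at -0.05 for FA+TPA against TPA. The Cd247 interaction with TPA was 0.12 with library size only and -0.19 to 0.12 with each library left out. Leaving out each library gave Cd8a -0.38 to 0.15 for TPA and -1.30 to 0.42 for FA+TPA against vehicle. For FA+TPA against TPA it gave Trdc -0.42 to 0.28, Trdv4 -0.87 to 0.29, Tcrg-C1 -0.44 to 1.00, Cd3g -0.32 to 0.20, Cd247 -0.09 to 0.16, Cd8a -1.17 to 0.55 and Thy1 -0.38 to 0.08. The causes of these changes were not tested. The Cd8a to Trdc difference ranged from 1.76 to 3.18. Of 1430 values of other genes named by rule, 1294 kept their call, 136 lost it and none turned. Of 201 values of 13 genes named after their values were seen, 186 kept, 8 lost and 7 turned. For KO against WT over all treatments, leaving out each library gave Tcrg-V5 -0.05 to 0.35, Tcrg-C2 -0.03 to 0.25 and Tcrg-C4 -0.08 to 0.16, and 1 mean per group gave Tcrg-C2 -0.02.

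Over all genes, library size only gave 1953 higher and 4982 lower calls for FA+TPA against vehicle (3347 and 2729 with TMM) and 640 and 233 for KO against WT (382 and 308). KO against WT had 1552 calls with no filter and 450 with 1 mean per group, against 690. In vehicle skin it had 219 calls at a minimum count of 50, 266 in DESeq2 and 832 with the replicate block, against 418. The TPA interaction had 3 calls with library size only, 21 with no filter and 11 in DESeq2, against 1, and the FA interaction 7 in DESeq2, against 0. With each library left out, calls were as few as 571 for FA+TPA against TPA, 2652 for FA+TPA against vehicle and 288 for KO against WT, and as many as 1465 in vehicle skin. The TPA interaction had 129 and 100 calls without KO vehicle replicate 1 or 2, 336 and 365 without WT vehicle replicate 1 or 2, and 6 without either FA+TPA library. The FA interaction had 51 calls without either KO vehicle library and 183 and 128 without WT vehicle replicate 1 or 2. An interaction could not be fitted without the 1 library of a treated group. Low counts limit Cd8a, Tcrg-C1, Trdv4 and Cd3d.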
